A study of Mus musculus with 8 samples.

Results

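Most TRIM proteins, though not all, are ubiquitin ligases built from a RING finger, B-box zinc fingers and a coiled coil. A C-terminal domain that differs between members follows. Of 13558 transcripts measured in mouse embryonic stem (mES) cells, 44 carry a symbol made of Trim, a number and an optional letter, and these 44 are the members described. The rule reads symbols only, so it takes in Trim71, the gene that was mutated, and leaves out relatives with other names such as Pml and Mid1. The question was which TRIM transcripts mES cells contain and which of them differ once Trim71 is lost.

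mRNA was sequenced from 4 libraries of Trim71 conditional cells (genotype Trim fl/fl, called WT) and from 4 libraries of mutant cells (Trim-/-, called KO), all C57BL/6 and male. Both groups descend from the same pair of clones, E3 and 1, with 3 KO and 2 WT libraries from E3 and 1 KO and 2 WT libraries from 1. All cells carried the floxed allele and a tamoxifen-activated Cre in the Rosa26 locus, which is active in nearly all cell types, and grew in serum with LIF. KO cells had received 500 nM 4-hydroxytamoxifen (4-OHT) for 2 days per the labels, then at least 7 further days in culture. The study's methods name a different dose, a shorter further culture, and a solvent control for WT. The labels give 4-OHT for the KO libraries only, so loss of Trim71 cannot be told apart from 4-OHT treatment and Cre activation. Cells bearing SSEA-1 were sorted before lysis. With a pair of clones, the 4 libraries of a group are not 4 independent lines, so p-values describe the spread between these libraries.

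In most TRIM proteins the RING finger recruits the enzyme that carries ubiquitin and the C-terminal domain picks the target. Members with a PRY-SPRY domain include sensors and effectors of antiviral defence. Those with a PHD finger and a bromodomain act on chromatin, and those with NHL repeats can bind RNA, as Trim71 does. Trim71 is the mammalian relative of the nematode gene lin-41 and a classic target of the let-7 microRNAs, which accumulate as stem cells differentiate.

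The values are normalized read counts per transcript, already corrected for batch by the authors. The study's methods do not name the batch. A clone term fitted beside genotype was at most 6.33e-06 of the mean in transcripts with no value at the floor of 1. The correction is therefore called the clone correction. The reads behind the values could be recovered for 43 of the 44 members, the exception being Trim28. Over all recovered transcripts they came to 6905540 (WT replicate 2) to 25673372 (WT replicate 3) per library. All 8 listed ES cell markers had a row, with summed levels of 63790 to 84960 normalized counts in KO and 59020 to 76680 in WT, and 0 of them had a limma p under 0.05. Of fibroblast markers, 4 of 8 had a row, with sums of 96.6 to 177.9 in KO and 74.6 to 154.5 in WT and 0 of the 4 with a limma p under 0.05. In the clone-corrected values Col1a2 stood at the floor of 1 in WT replicate 4. Fewer cells with a transcript and less of it per cell cannot be told apart in such libraries.

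Trim71 is shown first because it checks the labels. The gene occupies bases 114507133 to 114564369 of chromosome 9 (mm10, minus strand) in 4 exons. Exon 4, from 114507133 to 114514096, is the exon that recombination removes. It holds 1449 coding bases, 56.5% of the coding sequence, with all NHL repeats, and the whole 3′UTR. It makes up 74.6% of the GENCODE transcript and 54.4% of the part inside the shorter RefSeq locus, while exons 1 to 3 stay in the mutant gene. The junction that the deletion breaks is printed below on the sense strand, with the last 20 bases of exon 3 (start 114515733, end 114515867) in lower case and the first 40 bases of exon 4 in capitals.
Trim71 exon 3 to exon 4: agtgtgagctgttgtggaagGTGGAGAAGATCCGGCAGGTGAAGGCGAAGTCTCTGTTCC

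Where values are listed below, they follow replicates 1 to 4 of a group in turn. The level of Trim71 was 500.3, 792.9, 733.0 and 246.9 normalized counts in KO and 2782, 2736, 1988 and 2584 in WT. All KO libraries lay under all WT libraries, as in the plot of values by library. The KO mean was 0.225 of the WT mean, and the log2 fold change was -2.39 (standard error 0.35). The unadjusted limma p was 0.000201 and the adjusted one 0.294. An exact permutation p was 0.0286, the smallest that 70 assignments of the libraries allow. Here and below the permutations took clone-corrected values and ignored clone and day, so their p is a description only. Signal of Trim71 remained in every KO library, from 229 reads in replicate 1 to 588 in replicate 2. The table gives 1 value per transcript, so reads of exons 1 to 3 and reads of exon 4 cannot be told apart in it. The study's own read maps showed KO cells without reads of exon 4 but with reads of the remaining exons. The study explained the leftover Trim71 signal by these.

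**Figure D1:**
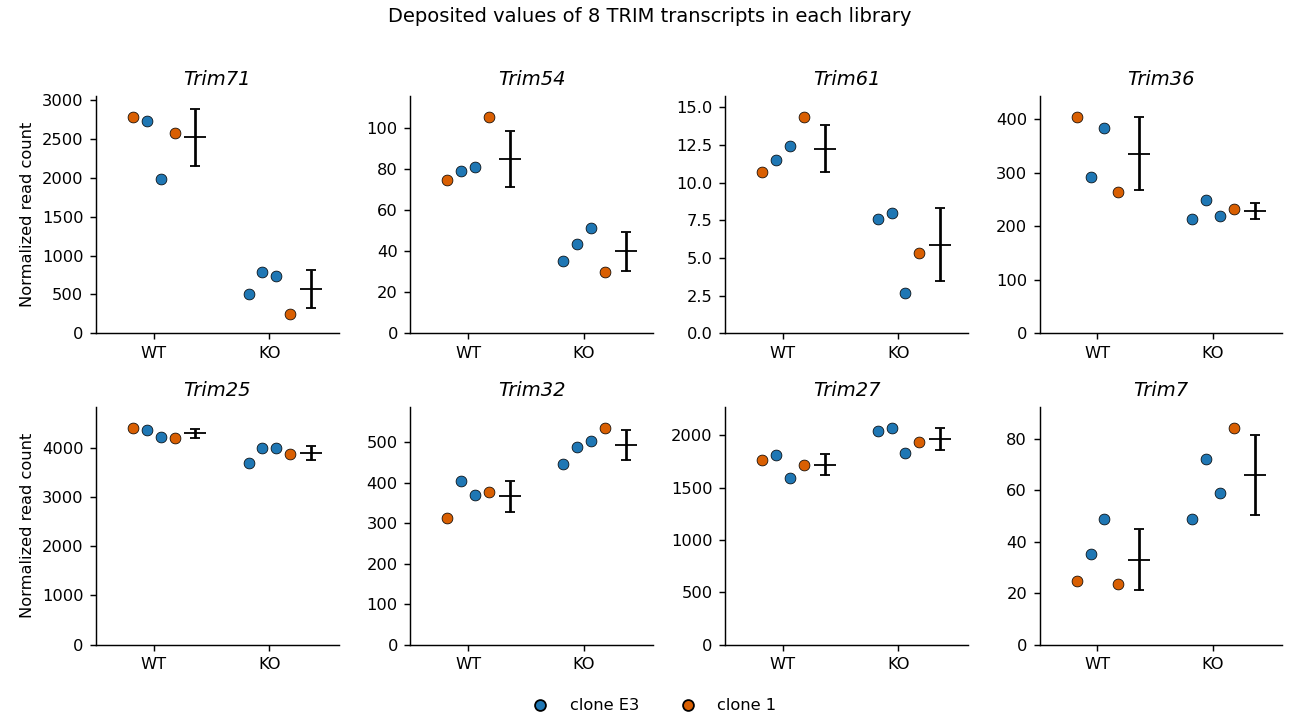
Normalized read counts (vertical axes, from 0) of 8 TRIM transcripts in the 4 WT and 4 KO libraries, coloured by clone; the bar beside each group is its mean with SD. Trim71, Trim54, Trim61, Trim36 and Trim25 lie lower in all KO libraries, Trim32 and Trim27 lie higher, and Trim7 overlaps by a single pair of values, 48.7 in KO replicate 1 and 48.8 in WT replicate 3.

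The let-7 seed match is shown because Trim71 is a known target of let-7. The 8 let-7 5′ arms named by letter in RefSeq share the seed GAGGUAG at bases 2 to 8, in capitals here for the first of them, at chr13:48538239-48538260 on the minus strand (GRCm38, the same build as mm10).
mmu-let-7a-5p: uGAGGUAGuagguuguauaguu
Its complement CTACCTC was searched on the sense strand of the 3′UTRs. It occurred in 5 of 44 members (11.4%) and in 1253 of all 12562 annotated 3′UTRs (9.97%). Trim6 held 6 matches and Trim71 held 4, against 1.19% of all 3′UTRs with 2 or more, and Trim16, Trim25 and Trim41 held 1 each. For Trim71 the pair nearest the stop codon lies within the RefSeq locus and the other pair only in the longer GENCODE 3′UTR. Examples follow on the sense strand, with the match in capitals.
Trim71 chr9:114512471-114512494 (minus strand), 166 bases after the stop codon: aacattgcctaagtcCTACCTCag
Trim71 chr9:114512375-114512398 (minus strand), 262 bases after it: agtgataatttctatCTACCTCaa
Trim6 chr7:104233458-104233481 (plus strand), 541 bases after the stop codon: atactgattatagatCTACCTCac
Trim6 chr7:104233503-104233526 (plus strand), 586 bases after it: atactgattatagctCTACCTCac
Trim6 chr7:104233940-104233963 (plus strand), 1023 bases after it: ctctttataaacaaaCTACCTCta
Trim25 chr11:89016899-89016922 (plus strand), 193 bases after the stop codon: gatggagaagcatatCTACCTCct

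Of the 6 matches in Trim6, 5 stand in a tandem array in nearly the same surrounding letters, as the first 2 lines for it show. Trim71 was the only transcript of these 5 with a limma p under 0.05 between KO and WT. The log2 fold changes of the others were 0.08 (standard error 0.18) for Trim6, -0.14 (0.10) for Trim25, 0.20 (0.13) for Trim41 and -0.09 (0.18) for Trim16. A match describes letters in the annotated transcript, and binding was not measured.

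**Figure D2:**
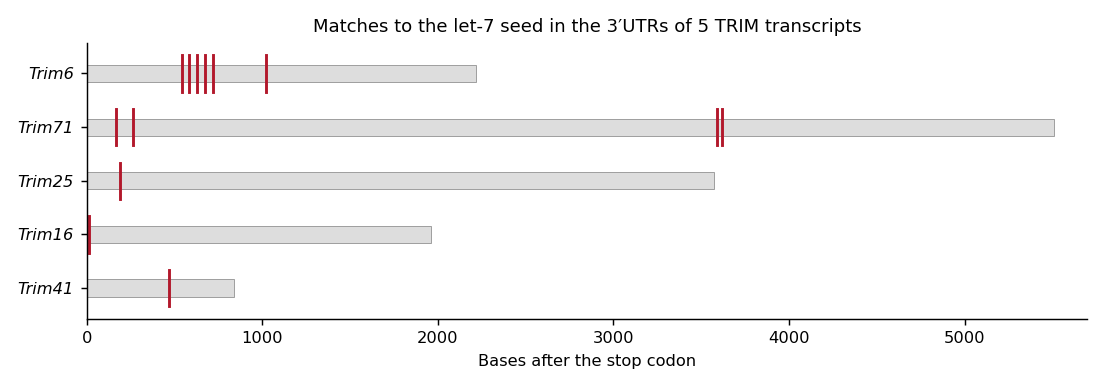
Matches to the let-7 seed (red ticks) along the 3′UTRs (grey bars) of the 5 TRIM transcripts that have any, with the distance from the stop codon in bases on the horizontal axis. Trim6 has 6 matches, 5 of them evenly spaced between 541 and 721 bases, and Trim71 has 4, at 166, 262, 3591 and 3617 bases.

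In WT cells the members spanned a 4143-fold range per kilobase of transcript. The most abundant was Trim28, the corepressor that KRAB zinc finger proteins bring to endogenous retroviruses, at 7747 ± 993 normalized counts per kb (SD, n = 4). It alone made up 44.1% of the summed WT signal of all members. Next came Trim6, a ubiquitin ligase known to bind Myc in ES cells, at 1006 ± 177 per kb, and Trim25, an RNA-binding ligase that activates the viral RNA sensor RIG-I, at 769.1 ± 17.5. Trim24, a nuclear receptor cofactor and ligase of p53, stood at 665.5 ± 67.5 and Trim13, a ligase of the endoplasmic reticulum membrane, at 499.6 ± 59.6 (all SD, n = 4). The 4 WT values did not overlap between neighbours down to this point in the order, but of all 43 neighbouring pairs only 7 did not overlap, and most of the order is thus not resolved.

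Trim71 stood at 270.3 ± 39.3 normalized counts per kb in WT (SD, n = 4), higher than 70.1% of all transcripts, over the GENCODE length of 9.33 kb. Over the 5.2 kb inside the RefSeq locus it would be 485.4 ± 70.5, near Trim13 and Trim59. The median member lay at 56.5 per kb and the median transcript at 117.7. The lowest members were Trim66, a chromatin member known from testis, at 1.87 ± 0.69 per kb, Trim29 at 4.05 ± 2.75 and Trim40 at 4.58 ± 3.10. These rest on few reads: WT replicate 2 had 0 reads of Trim29, where a count of 0 allows up to 3, 1 of Trim40 and 6 of Trim66 (counting error only). No member stood at the floor of 1.

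**Figure D3:**
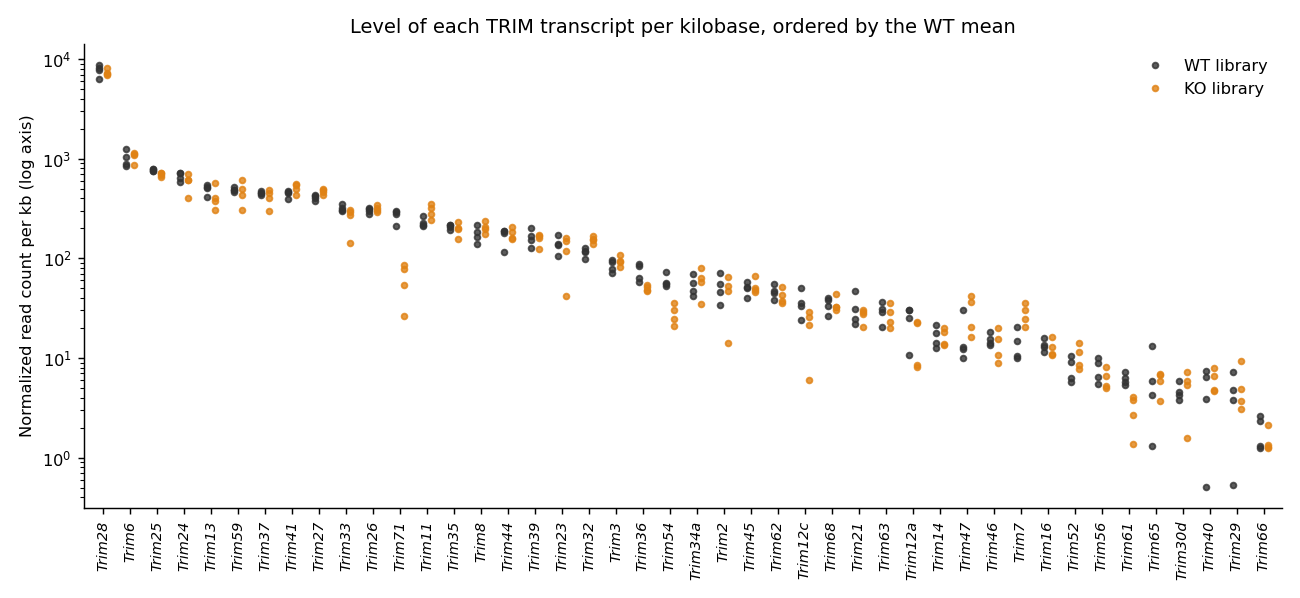
Level of each of the 44 TRIM transcripts in normalized read counts per kilobase (log axis), for 4 WT (black) and 4 KO (orange) libraries, in the order of the WT mean. Trim28 stands apart at 7747 and the lowest, Trim66, is at 1.87; Trim71 is the clearest separation between the colours.

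The members together made up 0.396% to 0.442% of a KO library's values and 0.41% to 0.465% of a WT library's. Without Trim28 and Trim71 these shares were 0.201% to 0.231% and 0.223% to 0.234%, so the summed family level overlapped between the groups in both cases. KO replicate 3 was the lowest library for 12 of the 44 members and the highest for 9, more often at either end than any other library.

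Between KO and WT, 6 of the 44 members (13.6%) had an unadjusted limma p under 0.05, against 9.09% of all transcripts. Trim71, Trim54, Trim61 and Trim36 were lower and Trim32 and Trim7 higher. With a fold change of at least 1.5 as well, 4 remained (9.09%, against 4.25% of all), of which Trim7 was higher (1.76% of all transcripts) and Trim71, Trim54 and Trim61 were lower (2.49% of all). Without Trim71, whose difference was the purpose of the experiment, 3 of 43 members remained. Trim61 and Trim40 each had a group mean under 10, the authors' lower limit, and so were kept through the other group alone. Among the 42 other members 5 had a p under 0.05, 3 passed both limits and 6 did not overlap. Of all transcripts, 469 had 1 group mean under 10, and the shares without those were not counted. Adjusted over all transcripts, 0 members had a limma p under 0.05, and 0 transcripts of the whole table did (6 of all transcripts, and 0 members, with the clone correction undone). With the day given in the labels as a block over 6 libraries and voom on recovered reads, the limma adjusted p of Trim71 was 0.0237, the only such call among the members and 1 of 4 among all transcripts. With that block and no voom it was 0.207.

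The median log2 fold change of the members was -0.08, against -0.0004 over all transcripts, with 18 members higher and 26 lower by sign. Differences were small for most: 25 members lay within 1.2-fold and 35 within 1.5-fold. The 4 KO and 4 WT values did not overlap in 7 members (15.9%, against 10.1% of all transcripts), namely those 6 other than Trim7, with Trim25 and Trim27 added. With the clone correction undone this held for 5 of 43 members (6.9% of all transcripts), and Trim36 and Trim27 then overlapped.

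**Figure D4:**
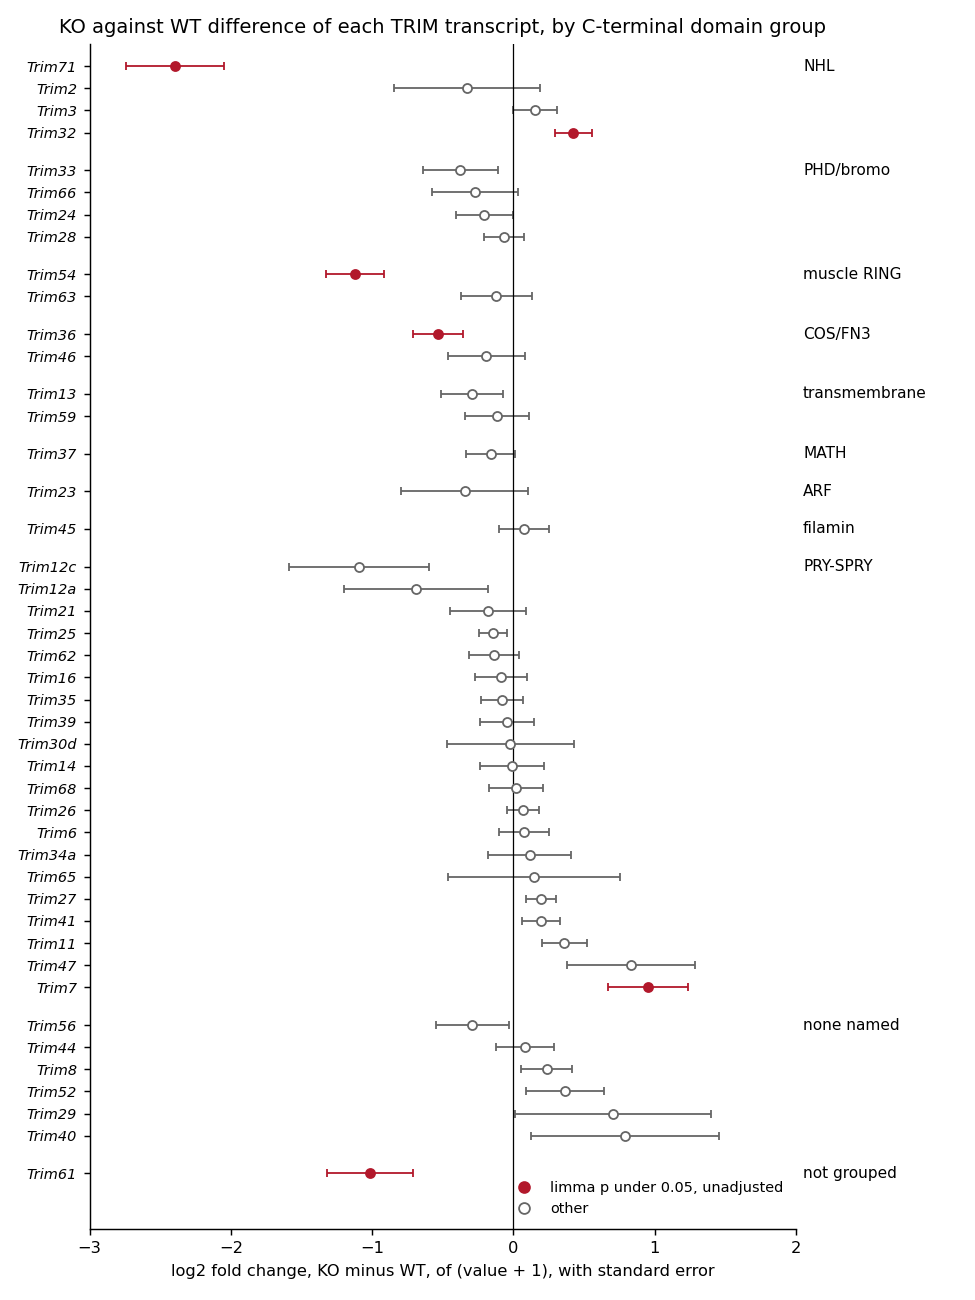
Log2 fold change of (value + 1) between KO and WT (horizontal axis) with its standard error for the 44 TRIM transcripts, grouped by C-terminal domain; filled red points have an unadjusted limma p under 0.05. Trim71 stands at -2.39, Trim54 at -1.12, Trim61 at -1.02 and Trim36 at -0.54, Trim7 at 0.95 and Trim32 at 0.42, and most others have error bars that cross or approach 0.

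Among the NHL repeat members, Trim71 and Trim32 moved in opposite directions. Trim32, a ubiquitin ligase mutated in a limb-girdle muscular dystrophy and active in neural progenitors (plus strand of chromosome 4, 65604986 to 65616238), had 447.8, 488.2, 504.0 and 534.7 normalized counts in KO and 314.2, 405.7, 369.2 and 378.6 in WT. Every KO library exceeded every WT library, also with the clone correction undone. The log2 fold change was 0.42 (standard error 0.13), with a limma p of 0.0130, 0.457 after adjustment, and an exact permutation p of 0.0286. Without KO replicate 4 it was 0.31 with a p of 0.104. Trim3, which binds a myosin motor in neurons, had a log2 fold change of 0.15 (standard error 0.15). Trim2, a ligase of neurofilaments, had -0.33 (standard error 0.52), and its lowest value, 104.5 against 254.8 to 534.1 in the other 7 libraries, was that of KO replicate 3.

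The transcript with the second smallest p among the members was Trim54, known as MuRF3, which binds microtubules and sarcomeres in muscle (plus strand of chromosome 5, 31116712 to 31137628). It stood at 35.1, 43.5, 51.1 and 29.8 normalized counts in KO and 74.8, 78.9, 81.0 and 105.2 in WT. The highest KO value thus lay under the lowest WT value. The KO mean was 0.469 of the WT mean and the log2 fold change -1.12 (standard error 0.20), with a limma p of 0.000848, 0.367 after adjustment, and an exact permutation p of 0.0286. The limma p stayed under 0.05 in all 21 alternative settings. The counts rest on 26 to 50 reads in KO and 42 to 172 in WT, and 12.3% of its 100-base stretches also occur in other transcripts, chiefly Gm15469.

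Its relative Trim63, or MuRF1, which marks muscle proteins for breakdown, had a log2 fold change of -0.12 (standard error 0.25). The sum of the muscle markers also moved with genotype. The 3 of 7 with a row, Des, Ttn and Acta1, added up to 525.8 to 622.4 normalized counts in KO and 655.5 to 998.1 in WT, without overlap, although 0 of them had a limma p under 0.05 and Acta1 stood at the floor of 1 in WT replicate 1. By sign 1 of the 3 was lower, the sarcomere protein Ttn, with a log2 fold change of -1.04 (standard error 0.72), while Des had 0.07 (0.25) and Acta1 0.45 (1.25). Myod1, Myog, Myf5 and Actc1 had no row. The part of these markers in the Trim54 difference was not tested.

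Trim36, a ligase with a COS box and a fibronectin domain known from the acrosome reaction of sperm, had 213.6, 248.4, 218.7 and 232.7 normalized counts in KO and 403.7, 292.2, 383.9 and 263.7 in WT. The KO libraries were alike and the WT libraries spread above them. The log2 fold change was -0.54 (standard error 0.18), with a limma p of 0.0179 and an exact permutation p of 0.0286. Without KO replicate 4 the p was 0.055, without WT replicate 3 it was 0.0721 and with day as a block 0.0683. With the clone correction undone the log2 fold change was -0.69 with a limma p of 0.0120, which passes the fold change criterion, but the groups overlapped, since KO replicate 4 stood at 329.4 and the WT replicates 2 and 3 at 195.5 and 287.2. Trim46, which has the same domains and marks the start of axons, had a log2 fold change of -0.19 (standard error 0.27).

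In the 20 PRY-SPRY members, 1 was higher and 0 lower with a limma p under 0.05, against 9.09% of all transcripts in either direction. By sign 10 were higher and 10 lower. The member with that p was Trim7, a ligase that binds glycogenin, the primer of glycogen synthesis. It lies on the plus strand of chromosome 11 from 48826140 to 48851187. Its level was 48.7, 72.1, 58.8 and 84.0 normalized counts in KO and 24.5, 35.4, 48.8 and 23.4 in WT. The KO mean was 2.00 times the WT mean, with a log2 fold change of 0.95 (standard error 0.28), a limma p of 0.0114 and an exact permutation p of 0.0571. Without KO replicate 4, the highest, it was 0.50 with a p of 0.0711. Of its 100-base stretches, 8.68% occur in other transcripts too, and which gene those reads came from was not tested.

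Trim25 differed by little, but with little spread. It had 3692, 4009, 3997 and 3880 normalized counts in KO and 4400, 4367, 4217 and 4213 in WT. No KO library reached the lowest WT library, also with the clone correction undone. The KO mean was 0.906 of the WT mean, and the log2 fold change was -0.14 (standard error 0.10), with a limma p of 0.191 and an exact permutation p of 0.0286. A linear model on the untransformed values of Trim25 alone, which changes both the scale and the estimate of the spread, gave a p of 0.00992.

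Trim27, a nuclear ligase that takes part in transcriptional repression, showed the opposite order. It had 2041, 2067, 1833 and 1933 normalized counts in KO and 1762, 1817, 1588 and 1714 in WT. KO lay above WT throughout, by a log2 fold change of 0.20 (standard error 0.11), with a limma p of 0.114 and an exact permutation p of 0.0286. With the clone correction undone, KO replicate 4 stood at 1804 and WT replicate 2 at 1946. Trim6 had 4194, 4307, 3286 and 4333 normalized counts in KO and 3411, 4750, 3253 and 3986 in WT, and the groups overlapped.

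The rodent antiviral relatives of human TRIM5 form a cluster on chromosome 7, where Trim6, Trim34a, Trim12a, Trim12c and Trim30d lie. Trim12c had 107.3, 96.0, 80.2 and 22.6 normalized counts in KO and 132.4, 124.5, 89.6 and 189.5 in WT. Its log2 fold change was -1.09 (standard error 0.50), with a limma p of 0.0629 and an exact permutation p of 0.0857, and KO replicate 4 was far under the other 7 libraries. With the clone correction undone KO replicate 4 stood at 52.0, beside 50.9 in KO replicate 3 and 60.2 in WT replicate 3. Trim12c passed the fold change criterion without WT replicate 3 and with the block and voom. Trim12a had -0.69 (standard error 0.51), Trim34a 0.12 (0.30) and Trim30d -0.02 (0.45). Of the other PRY-SPRY members, Trim47 had 0.83 (standard error 0.45) and Trim11 0.36 (0.16), and Trim14, Trim16, Trim21, Trim26, Trim35, Trim39, Trim41, Trim62, Trim65 and Trim68, lay between -0.18 and 0.20. Near-identical copies limit the values of the cluster, since 42% of the 100-base stretches of Trim34a occur also in other transcripts, above all Trim34b, and 11.3% of those of Trim12a.

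Trim61, a member outside the domain groups, was the least abundant of those with a p under 0.05 (minus strand of chromosome 8, 65012990 to 65018523). It had 7.56, 7.95, 2.69 and 5.31 normalized counts in KO and 10.7, 11.5, 12.4 and 14.3 in WT. These values stem from 5, 6, 0 and 6 recovered reads in KO and 16, 5, 22 and 13 in WT. Since transcripts with both group means under 10 had been removed, Trim61, at 5.88 ± 2.42 in KO and 12.2 ± 1.56 in WT (SD, n = 4 each), was in the table only through its WT libraries. A transcript kept that way has to differ between the groups, so its values are a description. All KO values were the lower ones, and the log2 fold change was -1.02 (standard error 0.30), with a limma p of 0.0118 and an exact permutation p of 0.0286. With the clone correction undone it was -1.35 with a limma p of 0.0613, and without KO replicate 4 -0.98 with a p of 0.0520.

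All 4 members with a PHD finger and a bromodomain were lower in KO by sign, and 0 of 4 had a limma p under 0.05. Their log2 fold changes were -0.07 (standard error 0.14) for Trim28, -0.21 (0.20) for Trim24, -0.38 (0.27) for Trim33, which regulates Smad signalling, and -0.27 (0.31) for Trim66. Trim28 had 22589 to 26599 normalized counts in KO and 20712 to 28302 in WT, with full overlap, and its sign changed without KO replicate 4 (0.0005) and without WT replicate 2 (0.03). Trim33 had 2585, 2707, 1260 and 2445 normalized counts in KO and 2630 to 3134 in WT, and KO replicate 3 stood far under the other 7 libraries.

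The partners of Trim28 in silencing were given from a list of 9 genes, among them the histone methyltransferase Setdb1 and the heterochromatin proteins Cbx1, Cbx3 and Cbx5. All 9 had a row and were lower in KO by sign (median log2 fold change -0.27), but 0 of 9 had a limma p under 0.05. In KO replicate 3 the list summed to 23600 normalized counts, against 29200 to 33070 in the other KO libraries and 28780 to 37850 in WT. Morc3 stood at 1326 there and at 2268 or more in the other 7 libraries. Setdb1 had 3066 ± 137 normalized counts in KO and 3072 ± 192 in WT, and Morc3 2261 ± 660 and 2964 ± 283 (SD, n = 4 each).

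Around Trim25, 8 of 11 listed genes of RIG-I signalling had a row. Of the 8, 1 had a limma p under 0.05, Zc3hav1, against 9.09% of all transcripts, and 3 were higher and 5 lower by sign. Zc3hav1 encodes ZAP, an antiviral protein that binds CpG-rich RNA and works with Trim25. It had 505.5, 607.8, 518.7 and 477.8 normalized counts in KO and 1168, 849.2, 955.2 and 735.5 in WT. The groups did not overlap, and the log2 fold change was -0.81 (standard error 0.18), with a limma p of 0.00233, 0.416 after adjustment, and an exact permutation p of 0.0286. Ddx58, which encodes RIG-I, had 0.46 (standard error 0.49) and Mavs 0.02 (0.12).

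Of the other members, Trim13 had 919.6, 660.7, 492.5 and 613.9 normalized counts in KO and 844.8, 890.8, 669.3 and 830.8 in WT, with a log2 fold change of -0.29 (standard error 0.22). With day as a block it was -0.44 with a limma p of 0.00771, against a p of 0.0722 for the same 6 libraries without the block. Without KO replicate 1 it was -0.44 with a p of 0.0368, and without KO replicate 3 -0.17 with a p of 0.400. Trim47 and Trim11 also had a p under 0.05 in the blocked fit, in which 8 of 44 members (18.2%) and 19.2% of all transcripts had one. The 6 members without a named C-terminal domain included 5 higher and 1 lower by sign and 0 with a p under 0.05. Trim8, Trim44, Trim52 and Trim56 lay between -0.29 and 0.37. Trim40 and Trim29 had 0.79 (standard error 0.67) and 0.70 (0.69), and they turned to -0.16 and -0.20 without WT replicate 2. Trim59, Trim37, Trim23 and Trim45, the remaining members with a transmembrane, MATH, ARF or filamin domain, ranged from -0.34 to 0.07.

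Relatives under other symbols had 5 rows of 7 listed, Pml, Mid1, Mid2, Triml1 and Triml2. All 5 were higher in KO by sign and 0 had a limma p under 0.05. For Mid2 the means were alike, 13.9 normalized counts in both groups. Its WT replicate 1 stood at the floor of 1, against 13.6 to 25.3 in the other WT libraries. Mid1, a microtubule-bound ligase, had 384.1 ± 61.8 normalized counts in KO and 301.9 ± 60.8 in WT, and Pml, the scaffold of nuclear bodies, 3637 ± 735 and 3536 ± 185 (SD, n = 4 each). Triml2 had 529.4 ± 134 and 468.1 ± 44.5.

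Transcript length moved with genotype over the whole table. In 2548 transcripts over 5 kb the median deviation from the mean over libraries was -0.12 to 0.02 on the log2 scale in KO libraries and 0.04 to 0.12 in WT libraries, and the median log2 fold change was -0.16. In 3434 transcripts under 2 kb that median was 0.11. Of the 8 members over 5 kb, 7 were lower by sign (Trim2, Trim25, Trim33, Trim37, Trim56, Trim66 and Trim71), with a median log2 fold change of -0.28. Of the 6 members under 2 kb (Trim12a, Trim13, Trim14, Trim54, Trim61 and Trim63), 6 were lower, with a median of -0.49. The part of length in the differences of the members was not tested.

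The difference between KO and WT was also taken within each clone. Clone 1 has a single KO library, so the fit assumes that it varies like the other groups, and its p-values are a guide only. In the deposited values the log2 difference of Trim71 was -1.81 in clone E3 and -3.44 in clone 1, with a limma p of 0.00881 for the difference between clones. With the correction undone the differences were -2.45 and -2.49, with a p of 0.948. Among the 44 members 5 had such a p under 0.05 (2.59% of all transcripts), namely Trim71, Trim12c, Trim68, Trim7 and Trim52. With the correction undone 2 of 43 did (1.76% of all transcripts), Trim12c and Trim68, and adjusted over all transcripts 0 did in either case.

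In undone values Trim12c differed by -0.23 in clone E3 and -1.84 in clone 1, and Trim68 by -0.27 and 0.63. The members besides Trim71 with a limma p under 0.05 between KO and WT were picked with these same libraries, which favours a shared sign. Their differences in clones E3 and 1 are thus a description, and those in clone 1 rest on 1 KO library. Trim54 had -0.97 and -1.41, Trim36 -0.87 and -0.37, Trim7 0.64 and 1.42 and Trim32 0.32 and 0.62. Trim61, kept through its WT libraries alone, had -1.63 and -0.84.

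**Figure D5:**
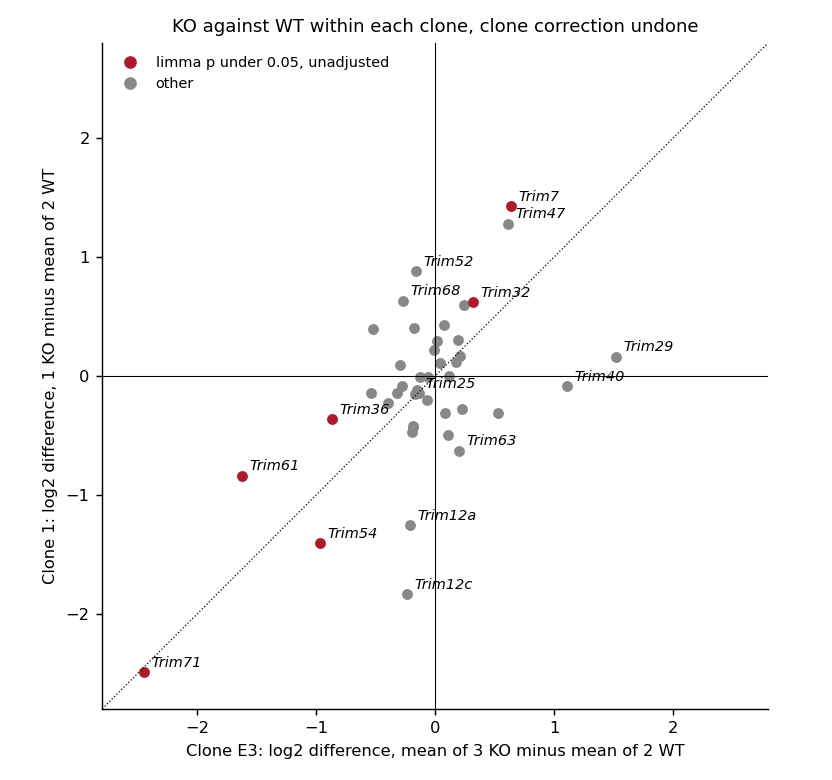
Log2 difference between KO and WT within clone E3 (horizontal axis) and within clone 1 (vertical axis) for 43 TRIM transcripts with the clone correction undone; red points had an unadjusted limma p under 0.05 and the dotted line marks equal differences. Trim71 lies on that line at -2.45 and -2.49, and Trim12c lies off it at -0.23 and -1.84.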

How the data were processed

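Per the labels and the study's methods, RNA was read from poly-A TruSeq libraries, which do not mark strand. Per the labels, the authors used CASAVA 1.8 and Bowtie2 2.2.1 (build mm10), counted reads per RefSeq transcript in Partek 6.6 and normalized with DESeq2. They then corrected for batch, set values under 1 to 1 and removed transcripts with both group means under 10. What was deposited is thus normalized signal and not raw counts. It was modelled as log2(value + 1) with genotype and clone in limma 3.58.1 (R 4.3.3) over all 13558 transcripts, with Benjamini-Hochberg adjustment. The fold change criterion was an unadjusted p under 0.05 and a fold of at least 1.5. Fold changes on this scale understate those of low transcripts.

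The clone correction was additive and could be undone: whole reads times a library factor plus a shift explained 13482 transcripts (99.4%), and 49 others had more than 1 solution and 27 none. The recovered reads were fitted with voom as an alternative, with TMM factors (a trimmed mean of log ratios) computed by a script of its own. Recovered reads cover the transcripts of the table only. The fit was tested on simulated data with 13558 transcripts and a dispersion of 0.1. Of 200 changed by 1 on the log2 scale, 156 passed the fold change criterion and 5 had an adjusted limma p under 0.05. Of 200 changed by 2, these counts were 199 and 180. Of the transcripts left unchanged in the same runs, 661 and 623 passed the criterion, and 0 and 5 had an adjusted limma p under 0.05. Exact two-sided permutation tests used the 70 assignments of the libraries. They took the clone-corrected values and ignored clone and day. The libraries were therefore not freely exchangeable, and these p-values describe the order of the values only.

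Days 3, 4 and 5 have 1 library of both genotypes each, per the labels, and day was used as a block over those 6 libraries. Deviations of same-day libraries correlated across transcripts at 0.539, 0.627 and 0.519 with the clone correction undone, against a median of -0.178 for other pairs, and at 0.419, 0.54 and -0.228 as deposited. Same-day libraries also share a clone.

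Members were named if they are Trim71, Trim25, Trim54, an NHL or TIF1-type member, among the 5 highest or 3 lowest per kilobase, or had a p under 0.05 or no overlap between the groups. Trim11, Trim12a, Trim12c, Trim47, Trim68 and other members named beside them were added after their values were seen. The members, lists and tests were chosen with earlier results of these data known. Lengths and 3′UTRs come from GENCODE M21 (GRCm38), with the RefSeq-linked transcript preferred. For 3 of 44 members more than 10% of that length lies outside the RefSeq locus. Shared sequence means 100-base stretches found in transcripts of other genes. Other steps ran in Python 3.11.15 with pandas 2.3.3, numpy 2.4.6 and scipy 1.17.1, and figures in matplotlib 3.10.9. Other settings are given in the closing section.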

Additional observations from a re-analysis of the deposited data

Results flagged for a closer look

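In 4 of 88 groups of 4 libraries (44 members in KO and in WT), a library stood apart from the other 3 by Dixon's criterion, and chance alone would give about 4.4. Trim44 in WT replicate 1 was at 653.7 normalized counts, against 1003 to 1067 in the other WT libraries. Trim47 in WT replicate 3 was at 66.4, against 22.1 to 28.1. Trim6 in KO replicate 3 was at 3286, against 4194 to 4333 in the other KO libraries, and Trim66 in KO replicate 3 was at 19.6, against 11.6 to 12.3. With the clone correction undone the values were 843.3, 58.4, 2959 and 18.5, and 0 of the 4 still met the criterion.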

How the results depend on the processing

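In all 21 alternative settings, Trim71 and Trim54 passed the fold change criterion. The number of members past both limits was 4 of 44, against 4.25% of all transcripts. With a mean of at least 50 it became 2 of 32, against 2.84% of the transcripts kept. In clone E3 only it became 2 of 44, against 278 of all 13558 transcripts. When voom on recovered reads was fitted with the replicate block by day, it became 7 of 43. The share of all transcripts fitted that way also rose, to 7.76%. Leaving out a library gave 2 of 44 (without KO replicate 4, 1.92% of all) to 7 of 44 (without WT replicate 3, 6.16% of all). Members with an unadjusted p under 0.05, 6, became 13 of 43 (against 23.6% of all transcripts) with the block and voom and 3 (6.82%, against 2.77%) in clone E3 only, and 2 (4.55%, against 3.26%, without KO replicate 4) to 9 (20.5%, against 9.56%, without WT replicate 3) when a library was left out. Members without overlap, 7, became 11 over the 6 libraries of days 3, 4 and 5 with no block, and 7 to 12 when a library was left out (11 without KO replicate 1, 12 without WT replicate 3). The share of all transcripts without overlap was not counted for these sets of libraries. Groups of fewer values overlap less often, so these counts cannot be compared with the 7. The adjusted count of 0 became 1, Trim71, with the block and voom. With the replicate block by day alone, 5 of 44 members passed both limits, against 7.49% of all transcripts. In that fit 8 had a limma p under 0.05 (18.2%, against 19.2% of all transcripts). The cause of these shifts was not tested, apart from the fewer libraries or transcripts that a setting keeps.

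Signs turned for 5 of the 19 genes followed. Trim6 was -0.0021 with the block and over those 6 libraries without it, and -0.0111 in clone E3 only, where Trim28 was 0.0005. When a library was left out, Trim2 ranged from -0.57 to 0.10 (positive without KO replicate 3), Trim28 from -0.21 to 0.030 (0.0005 without KO replicate 4, positive also without WT replicate 2), Trim6 from -0.0407 to 0.25 (negative without KO replicate 4 or WT replicate 3), Trim40 from -0.16 to 1.43 and Trim29 from -0.20 to 1.42 (both negative without WT replicate 2). Of 370 values in all, 340 kept their side of 0.05 and their sign, 13 lost and 6 gained a p under 0.05 and 11 turned. Over all transcripts the criterion was passed by 576, against 315 with a mean of at least 50, 1015 with the block, 1046 with the block and voom, 382 with a linear model on untransformed values and 260 without KO replicate 4. The difference between clones could not be fitted in clone E3 only or without KO replicate 4. Low counts limit Trim61, Trim29, Trim40 and Trim66.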
